A study of Mus musculus with 18 samples.

Results

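The chemokine receptors described here are 6 genes chosen by name, Ccr1, Ccr2, Ccr7, Ccrl2, Cx3cr1 and Cxcr4, out of 50600 genes in the count table. Each of the 6 passed the filter on low counts, after which 15663 genes were tested. They were measured by RNA-seq in bone marrow-derived macrophages (BMDMs), cells grown for 8 days from mouse bone marrow with recombinant GM-CSF. The study compared wild type (WT) cells with cells that lack the transcription factor IRF5 (IRF5 KO), and asked how defactinib, an inhibitor of the kinases PYK2 and FAK, changed their response to lipopolysaccharide (LPS). There were 6 groups of 3 biological replicates. Of each genotype, 3 cultures received DMSO, the vehicle, and no LPS (unstimulated), 3 received DMSO for 1 h and then 100 ng/ml LPS for 2 h (LPS DMSO), and 3 received 3.5 µM defactinib for 1 h and then the same LPS (LPS defactinib). The unstimulated cultures are labelled as given DMSO, while their columns in the count table are marked as untreated. Every culture had been exposed to GM-CSF, and defactinib was not given without LPS. The labels give no strain, age or sex, and do not describe the Irf5 deletion further.

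Chemokine receptors are receptors of the cell surface that span the membrane repeatedly, couple to inhibitory G proteins and steer leukocytes along gradients of chemokines. On monocytes and macrophages, Ccr2 binds Ccl2 and related chemokines and is needed for monocytes to leave the bone marrow, and Ccr1 binds inflammatory chemokines such as Ccl3 and Ccl5. Ccr7 binds Ccl19 and Ccl21 and takes maturing dendritic cells to lymph nodes, Cxcr4 binds Cxcl12 and holds cells in the bone marrow, and Cx3cr1 binds the membrane chemokine Cx3cl1 and marks patrolling monocytes and resident macrophages. Ccrl2 is an atypical receptor that binds chemerin, the product of Rarres2, and presents it to other cells without classical signalling.

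In GRCm38 (mm10), 4 of the 6 genes lie on chromosome 9. Ccr1 (chr9:123962124-123968692, minus strand) and Ccr2 (chr9:124101950-124113557, plus strand) lie in the same receptor cluster, 133258 bases apart, with Ccr3 between them. Ccrl2 (chr9:111054486-111057519, minus strand) and Cx3cr1 (chr9:119901616-120069879, minus strand) lie elsewhere on the same chromosome. Ccr7 is at chr11:99144196-99155077 and Cxcr4 at chr1:128588199-128592293, both on the minus strand. The annotated model of Cx3cr1 overlaps Gorasp1, Csrnp1 and Xirp1 on the same strand, and reads in exons that they share could not be assigned to one gene.

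The libraries held 39282181 to 61949143 counted read pairs each. Counts per library ran from 1954 to 20693 for Ccr1, from 1756 to 20093 for Ccr2, from 365 to 14378 for Ccr7, from 277 to 18558 for Ccrl2 and from 65 to 722 for Cxcr4. Cx3cr1 had 4 to 131 counts, the fewest of the 6. Of 8 macrophage markers, 8 exceeded 1 CPM (a count scaled by library size) in every group. The levels of some differed between genotypes, in either direction. Adgre1 was at a mean of 73.3 CPM in WT unstimulated and 302 CPM in IRF5 KO unstimulated libraries. In the LPS DMSO groups it was at 94.4 and 565 CPM. Mertk was at 66.4 and 47.0 CPM in the unstimulated groups and at 150 and 31.3 CPM in the LPS DMSO groups. Markers of dendritic cells were present too, with a summed level of 2600 to 14211 CPM, most of it Ccl22. The summed levels of the 6 T cell, 6 B cell and 4 NK cell markers did not exceed 6.96, 3.20 and 0.389 CPM in any library. The 8 neutrophil markers summed to 58.0 to 80.0 CPM in WT unstimulated and 121 to 236 CPM in WT LPS DMSO libraries, and to 70.3 to 82.3 and 148 to 180 CPM in the same groups of IRF5 KO. The 6 mast cell and basophil markers summed to 7.89 to 15.5 CPM in WT libraries and 42.7 to 72.4 CPM in IRF5 KO ones. The difference was mostly in Gata2, at a mean of 3.27 CPM in WT unstimulated and 32.3 CPM in IRF5 KO unstimulated libraries, and in Kit, at 6.96 and 17.2 CPM, while Cpa3, Mcpt8, Ms4a2 and Fcer1a stayed under 1 CPM in these groups. The part of neutrophil, mast cell and basophil RNA, or of the macrophage marker differences, in the LPS and genotype results was not tested. In bulk RNA, fewer cells of a type and less RNA per cell cannot be told apart. Counts over the whole of Irf5 differed between genotypes by less than 2-fold. The level was 587, 606 and 650 CPM in WT unstimulated libraries and 335, 396 and 364 CPM in IRF5 KO ones, a log2 difference of 0.75 (edgeR adjusted p = 0.00492), and the difference after LPS was 0.16 (edgeR adjusted p = 0.428). Which exons are deleted was not given in the sources used here.

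The group IRF5 KO LPS DMSO was not homogeneous. Its replicates 1 and 2 differed by a chi-square of 2.33 per gene, less than any pair within the other groups (3.82 to 183), while replicate 3 differed from them by 441 and 425 per gene. Over the genes tested and outside their own group, replicates 1 and 2 correlated best with the IRF5 KO LPS defactinib libraries (r = 0.985 to 0.987), and replicate 3 with the IRF5 KO unstimulated libraries (r = 0.978 to 0.979). Whether each of these 3 libraries was treated as labelled could not be settled from the data, and the labels are used as given. Among the other groups, the WT LPS defactinib libraries were the least alike, replicate 3 differing from replicates 1 and 2 by 140 and 183 per gene. Receptor results that use the IRF5 KO LPS DMSO group are therefore given with all 3 libraries, without replicate 3, and without replicates 1 and 2. Gene lists are given in the same way, as counts or as the range of log2 fold changes.

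**Figure D1:**
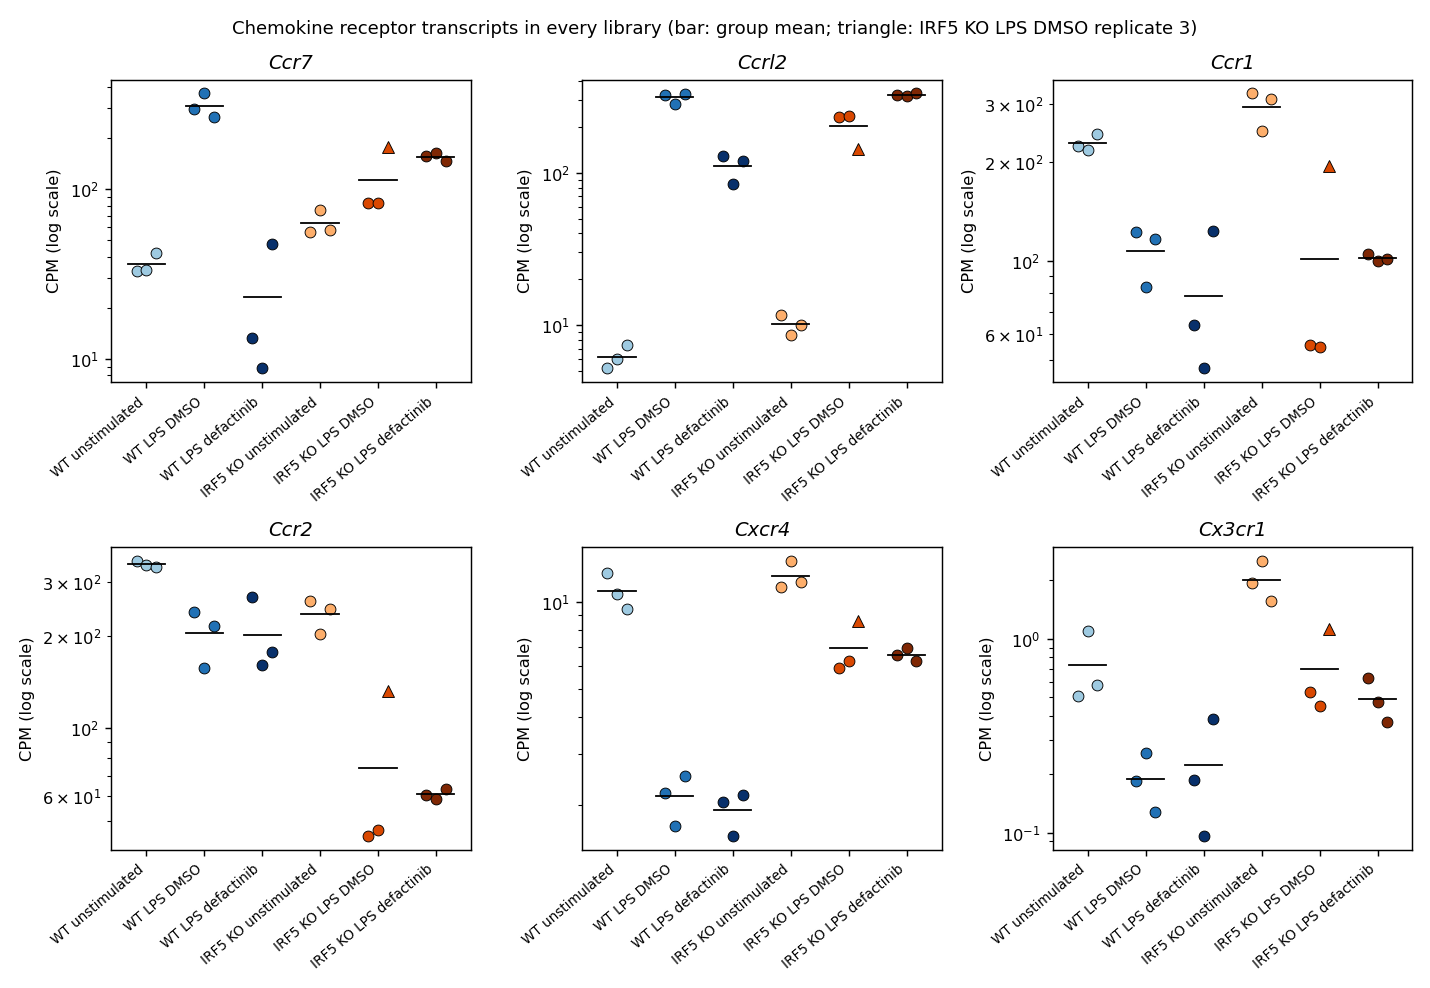
Level of each receptor in CPM, on a log axis, in the 18 libraries by group; dots are libraries, bars are group means and triangles mark IRF5 KO LPS DMSO replicate 3. Ccr7 and Ccrl2 are each highest in a group given LPS, although the lowest mean of Ccr7 is that of WT LPS defactinib. The other receptors are highest in an unstimulated group, and the triangle stands apart from its 2 fellow libraries in each of the 6 plots.

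The first comparison asked which receptors WT macrophages changed within 2 h of LPS. Ccrl2 and Ccr7 rose, and Cxcr4, Cx3cr1 and Ccr1 fell, so 5 of 6 receptors were called, where called means a change of at least 2-fold with an adjusted p under 0.05 (edgeR's quasi-likelihood test, Benjamini-Hochberg over 15663 genes). Of all genes tested, 21.3% were called in this comparison, 11.6% higher and 9.71% lower. The median log2 fold change was -0.92 over the 6 receptors and near 0 (-0.0045) over all genes tested.

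Ccrl2 had the largest response of the 6. Its level was 5.19, 5.97 and 7.44 CPM in unstimulated WT libraries and 322, 285 and 329 CPM after LPS. The groups were far apart, and the gene went from one of the weakest receptors to one of the strongest. The log2 fold change was 5.66 (SE 0.23, edgeR adjusted p = 1.48e-10), a 50.4-fold rise. For Ccrl2, RefSeq gives 3 annotated starts, and the 250 bases before the outermost of them (GRCm38.p6, minus strand, chr9:111057519-111057768) hold a match to the NF-kB motif, 56 bases before the start. The 250 bases before the other starts hold no match. The sequence is shown because Ccrl2 was the receptor that LPS moved most, with the match in capitals.

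Ccrl2: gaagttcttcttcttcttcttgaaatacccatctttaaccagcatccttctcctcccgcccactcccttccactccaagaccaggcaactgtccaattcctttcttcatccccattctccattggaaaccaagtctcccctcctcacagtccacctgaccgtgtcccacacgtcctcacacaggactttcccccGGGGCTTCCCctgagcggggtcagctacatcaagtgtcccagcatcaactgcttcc

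The match reads as a site on both strands. A match to this motif is not rare, since 7.25% of 32851 mouse promoters of the same length hold one. Among the other receptors with a promoter in the table (Ccr1, Ccr2, Cx3cr1 and Cxcr4), Ccr1 also holds one, 74 bases before its start (chr9:123968693-123968942, minus strand), and it is printed for contrast because Ccr1 moved the other way.

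Ccr1: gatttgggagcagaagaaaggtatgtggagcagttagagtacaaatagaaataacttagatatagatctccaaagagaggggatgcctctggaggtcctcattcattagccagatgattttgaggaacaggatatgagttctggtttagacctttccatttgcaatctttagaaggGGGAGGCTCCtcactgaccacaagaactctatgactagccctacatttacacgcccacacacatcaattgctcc

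The Ccr1 stretch also holds the PU box GAGGAA, 129 bases before the start, as do 23.3% of all promoters. Neither the interferon-stimulated response element, searched as GAAA followed after 2 bases by GAAA (2.98% of promoters), nor the AP-1 motif TGANTCA (6.75%) was found on either strand in these 250 bases of the 5 receptors. Motif matches describe the letters only. Ccr7 has no entry in the promoter table.

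Ccr7, the lymph node homing receptor, was the other receptor that rose. It was present before stimulation, at 32.9, 33.4 and 41.9 CPM, and reached 298, 368 and 266 CPM after LPS. The lowest stimulated library was above the highest unstimulated one by a wide margin. Ccr7 rose by 3.11 on the log2 scale (SE 0.49, edgeR adjusted p = 0.000112), or 8.62-fold. The summed level of the 8 dendritic cell markers rose in the same libraries, from 2865 to 3336 CPM before LPS to 12455 to 14211 CPM after it. Without Ccl22 the other 7 markers summed to 111 to 113 and 130 to 150 CPM. Among them Zbtb46, a transcription factor of dendritic cells, was at a mean of 60.4 CPM before LPS and 91.2 CPM after it, and Batf3 at 27.9 and 22.1 CPM. The part of these cells in the Ccr7 result was not tested.

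Cxcr4 fell most clearly. It was at 12.5, 10.6 and 9.46 CPM in unstimulated WT libraries and at 2.20, 1.69 and 2.52 CPM after LPS, with no overlap. Its log2 fold change was -2.35 (SE 0.20, edgeR adjusted p = 2.06e-07), a 5.08-fold fall. Cx3cr1 was low throughout, at 0.505, 1.10 and 0.577 CPM before LPS and 0.185, 0.256 and 0.127 CPM after it. The groups did not overlap, and the log2 fold change of -1.93 (SE 0.50, edgeR adjusted p = 0.00538) rests on 27 to 65 counts per library before LPS and 5 to 10 after it.

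Ccr1 and Ccr2 had smaller log2 fold changes. Ccr1 was at 224, 216 and 242 CPM before LPS and at 122, 83.2 and 116 CPM after it. Its log2 fold change was -1.09 (SE 0.41, edgeR adjusted p = 0.0466), close to both limits of the call. The call was lost, with log2 fold changes of -1.19 to -0.94 over the 18 settings, when any 1 library of WT unstimulated, WT LPS DMSO, IRF5 KO unstimulated or IRF5 KO LPS defactinib was left out. Ccr2 was at 350, 340 and 334 CPM before LPS and at 238, 158 and 214 CPM after it. All stimulated libraries were below all unstimulated ones, but the log2 fold change of -0.75 (SE 0.32, edgeR adjusted p = 0.0765) was not called. With library size alone as the scaling, Ccr2 reached -1.13 (edgeR adjusted p = 0.0140) and was called, and this scaling shifted the median of all genes by -0.38.

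**Figure D2:**
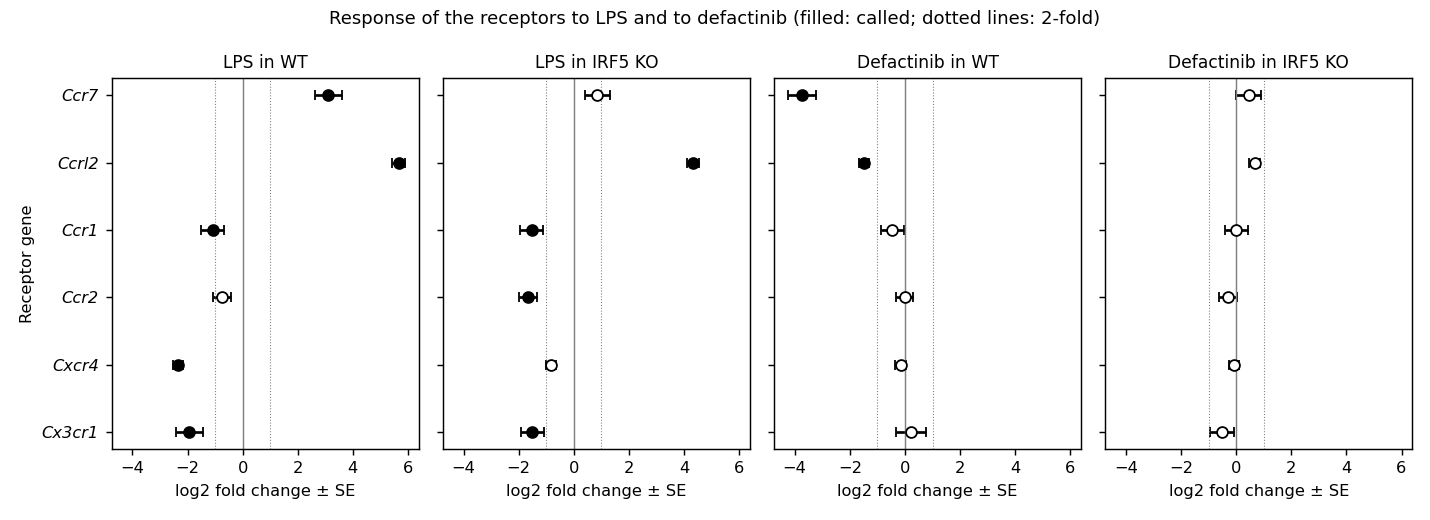
Log2 fold change of each receptor with its SE after LPS and after defactinib in each genotype, over 3 libraries per group; filled dots are called, and dotted lines mark a 2-fold change. Ccrl2 and Ccr7 lie at 5.66 and 3.11 for LPS in WT and at -1.49 and -3.74 for defactinib in WT, while no dot is filled for defactinib in IRF5 KO.

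The same comparison in IRF5 KO macrophages called 4 of 6 receptors, against 13.3% of all genes tested (7.07% higher and 6.28% lower). Without replicate 3 of IRF5 KO LPS DMSO 26.2% of all genes were called, and without replicates 1 and 2 2.71%. Ccrl2 rose, and Ccr1, Ccr2 and Cx3cr1 fell. The median log2 fold change over the 6 receptors was -1.16, and it was -1.52 without replicate 3 and -0.54 without replicates 1 and 2. Of the 4 calls, Ccrl2 did not depend on the choice of libraries in the IRF5 KO LPS DMSO group, and the other 3 did.

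Ccrl2 went from 11.7, 8.64 and 10.1 CPM to 233, 237 and 143 CPM in replicates 1, 2 and 3. The lowest of the stimulated libraries was replicate 3, and it was still far above the unstimulated range. This was a log2 fold change of 4.33 (SE 0.22, edgeR adjusted p = 5.66e-09), 20.1-fold, and it was 4.53 without replicate 3 and 3.83 without replicates 1 and 2.

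Ccr1 was at 322, 248 and 310 CPM in unstimulated IRF5 KO libraries and at 55.2, 54.6 and 194 CPM after LPS. Ccr2 was at 260, 202 and 245 CPM before LPS and at 44.7, 46.5 and 132 CPM after it. For both genes replicate 3 lay between the unstimulated libraries and its 2 fellow replicates. Ccr1 had a log2 fold change of -1.53 (SE 0.42, edgeR adjusted p = 0.0130), -2.42 without replicate 3 and -0.58 without replicates 1 and 2 (edgeR adjusted p = 0.515). That of Ccr2 was -1.66 (SE 0.33, edgeR adjusted p = 0.00291), -2.37 without replicate 3 and -0.82 without replicates 1 and 2 (edgeR adjusted p = 0.0680). Leaving out replicate 1 or 2 alone also ended the call of Ccr1, at -1.22 in either case (edgeR adjusted p = 0.0669 and 0.0659), and kept that of Ccr2.

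Cx3cr1 was at 1.93, 2.52 and 1.57 CPM before LPS and at 0.533, 0.451 and 1.12 CPM after it. The ranges did not overlap. Its log2 fold change of -1.50 (SE 0.43, edgeR adjusted p = 0.0161) became -2.02 without replicate 3 and -0.83 without replicates 1 and 2, which ended the call. So did leaving out IRF5 KO unstimulated replicate 2 (-1.31), or either replicate 1 (-1.32) or 2 (-1.26) of the stimulated group.

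Ccr7 and Cxcr4 were not called after LPS in IRF5 KO cells. Ccr7 was at 56.4, 75.4 and 57.4 CPM before LPS and at 82.6, 82.6 and 177 CPM after it. Its log2 fold change was 0.85 (SE 0.45, edgeR adjusted p = 0.144), with 0.39 when replicate 3 was left out and 1.50 when replicates 1 and 2 were, neither of them called. Cxcr4 was at 11.2, 13.8 and 11.7 CPM before LPS and at 5.89, 6.23 and 8.61 CPM after it. Its log2 fold change of -0.82 (SE 0.18, edgeR adjusted p = 0.00480) passed the adjusted p but not the 2-fold limit, and it reached -1.02 without replicate 3, where it was called, and -0.49 without replicates 1 and 2. With library size alone as the scaling it was also called, at -1.05 (edgeR adjusted p = 0.00216).

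**Figure D3:**
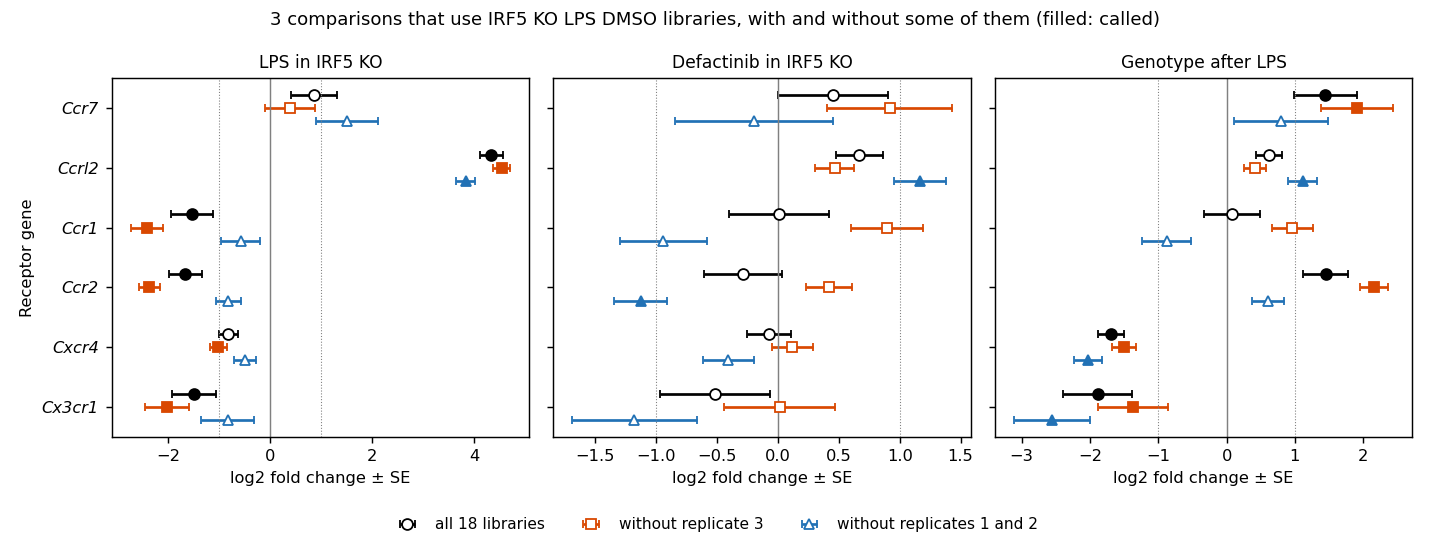
Log2 fold change of each receptor with its SE in 3 of the 5 comparisons that use the IRF5 KO LPS DMSO libraries, with all libraries, without replicate 3, and without replicates 1 and 2; filled symbols are called. For Ccr1, Ccr2 and Cx3cr1 the LPS response in IRF5 KO is smaller without replicates 1 and 2 (-0.58, -0.82 and -0.83) than without replicate 3 (-2.42, -2.37 and -2.02), whereas Ccrl2 stays between 3.83 and 4.53.

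Whether the LPS response itself differed between genotypes was tested as an interaction, WT minus IRF5 KO. It was called for 3 of 6 receptors, against 9.83% of all genes tested (6.33% higher and 3.49% lower). The response in WT was higher by 1.32 on the log2 scale for Ccrl2 (SE 0.27, edgeR adjusted p = 0.00473) and by 2.25 for Ccr7 (SE 0.64, edgeR adjusted p = 0.0270). For Cxcr4 the fall was deeper in WT, with an interaction of -1.52 (SE 0.26, edgeR adjusted p = 0.00154). Ccrl2 and Cxcr4 were called under each choice of libraries, at 1.12 and -1.33 without replicate 3 and at 1.82 and -1.86 without replicates 1 and 2. Ccr7 was at 2.72 without replicate 3 and at 1.6, no longer called, without replicates 1 and 2 (edgeR adjusted p = 0.285). Its call was also lost without WT unstimulated replicate 1 (2.19) or 2 (2.20), WT LPS DMSO replicate 2 (2.09), IRF5 KO unstimulated replicate 2 (2.10), or IRF5 KO LPS DMSO replicate 1 or 2 (2.05 in both). Ccr1 (0.45, SE 0.58), Ccr2 (0.92, SE 0.45) and Cx3cr1 (-0.43, SE 0.65) were not called, but Ccr1 and Ccr2 reached 1.33 and 1.62 and were called without replicate 3. Without replicates 1 and 2, Ccr1 (-0.51), Ccr2 (0.069) and Cx3cr1 (-1.11) were not called, and Cx3cr1 was at 0.085 without replicate 3. Of all genes, 23.6% were called without replicate 3 and 6.48% without replicates 1 and 2.

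Defactinib before LPS, compared with DMSO before LPS, lowered Ccr7 and Ccrl2 in WT macrophages, so 2 of 6 receptors were called. Of all genes tested, 29.1% were called, 10.4% higher and 18.6% lower, so the share among receptors was near the background. The 3 WT LPS DMSO libraries are shared with the LPS comparison above, so the receptors that rose there and fell here are not independent results.

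Ccr7 was at 298, 368 and 266 CPM with DMSO and at 13.3, 8.78 and 47.5 CPM with defactinib. In replicates 1 and 2 it was below every unstimulated WT library, and in replicate 3 just above them. The log2 fold change was -3.74 (SE 0.50, edgeR adjusted p = 2.34e-05), a 13.4-fold fall, and it was -4.80 without WT LPS defactinib replicate 3. The summed dendritic cell markers were 9057 to 11643 CPM with defactinib, or 104 to 149 CPM without Ccl22. Single markers differed in direction, with Zbtb46 at a mean of 91.2 CPM with DMSO and 25.2 CPM with defactinib, Batf3 at 22.1 and 50.7 CPM, and Dpp4 at 11.3 and 30.3 CPM. The part of dendritic cells in the fall of Ccr7 was not tested. Ccrl2 was at 322, 285 and 329 CPM with DMSO and at 129, 84.5 and 120 CPM with defactinib. For Ccrl2, all 3 inhibitor libraries were below the DMSO libraries and above the unstimulated ones. The log2 fold change was -1.49 (SE 0.19, edgeR adjusted p = 1.38e-05), a 2.81-fold fall.

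The 4 receptors that had not risen with LPS were not called for defactinib in WT cells. Ccr1 was at 63.8, 47.0 and 123 CPM with the inhibitor, and its log2 fold change was -0.46 (SE 0.41, edgeR adjusted p = 0.351). Replicate 3 was just above the highest DMSO library and the other 2 were below the lowest, and without replicate 3 the value was -0.94 (edgeR adjusted p = 0.0726). Ccr2 was at 267, 160 and 177 CPM, which overlapped the DMSO libraries, with a log2 fold change of -0.01 (SE 0.32). Cxcr4, at 2.05, 1.56 and 2.16 CPM, changed by -0.15 (SE 0.20), and Cx3cr1, at 0.186, 0.0962 and 0.385 CPM, by 0.22 (SE 0.56).

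In IRF5 KO macrophages 0 of 6 receptors were called for defactinib by edgeR, and 0 by DESeq2, against 0.919% of all genes tested (0.160% higher and 0.760% lower). At an unadjusted p under 0.05, edgeR found 1 receptor, Ccrl2. It was at 323, 318 and 332 CPM with defactinib, above each of the DMSO libraries, and its log2 fold change was 0.67 (SE 0.19, edgeR adjusted p = 0.0626). Ccr7 was at 158, 164 and 146 CPM with the inhibitor, a log2 fold change of 0.45 (SE 0.45). Those levels lay above IRF5 KO LPS DMSO replicates 1 and 2 and below replicate 3. Ccr1 was at 105, 100.1 and 101 CPM and Ccr2 at 60.6, 58.9 and 63.4 CPM, and both again lay between replicate 3 and the other 2 DMSO libraries. Their log2 fold changes were 0.01 (SE 0.41) and -0.29 (SE 0.32). Cxcr4 changed by -0.07 (SE 0.18) and Cx3cr1 by -0.51 (SE 0.45).

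These values moved with the libraries used. Without replicates 1 and 2 of IRF5 KO LPS DMSO, Ccr2 was called lower at -1.13 (edgeR adjusted p = 0.000732) and Ccrl2 higher at 1.17 (edgeR adjusted p = 0.000407), and 19.2% of all genes were called. Ccr1 (-0.94), Cx3cr1 (-1.18), Cxcr4 (-0.41) and Ccr7 (-0.20) were then not called. Without replicate 3, 0 of the 6 were called, against 1.45% of all genes. Ccr7 was at 0.92, Ccr1 at 0.89, Ccrl2 at 0.47, Ccr2 at 0.42, Cxcr4 at 0.12 and Cx3cr1 at 0.013. Between these choices of libraries the sign changed for each receptor but Ccrl2.

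The effect of defactinib differed between genotypes, as an interaction, for 2 of 6 receptors, against 22.8% of all genes tested (10.5% higher and 12.3% lower). These were Ccr7, with a difference of -4.20 on the log2 scale (SE 0.66, edgeR adjusted p = 0.000195), and Ccrl2, with -2.16 (SE 0.27, edgeR adjusted p = 2.15e-05). For both genes the log2 fold change was negative in WT, while in IRF5 KO that of Ccrl2 was 0.67 and that of Ccr7 0.45 (SE 0.45), neither called. Without replicates 1 and 2 they were 1.17, called, and -0.20, not called. The difference was called under each choice of IRF5 KO LPS DMSO libraries, at -4.66 and -1.96 without replicate 3 and at -3.53 and -2.65 without replicates 1 and 2. Ccr1 was called at -1.35 only without replicate 3, and Ccr2 at 1.12 only without replicates 1 and 2. With all libraries they were at -0.47 and 0.27, and under the other choice Ccr1 was at 0.50 and Ccr2 at -0.43. Cxcr4 (-0.08, SE 0.27) and Cx3cr1 (0.73, SE 0.72) were not called, nor were they without replicate 3 (-0.27 and 0.20) or without replicates 1 and 2 (0.27 and 1.41). Of all genes, 31.6% were called without replicate 3 and 19.1% without replicates 1 and 2.

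Before stimulation, the genotypes differed in 1 of 6 receptors, against 7.31% of all genes tested (3.80% higher and 3.51% lower in WT). Cx3cr1 was lower in WT, at a log2 difference (WT minus IRF5 KO) of -1.46 (SE 0.43, edgeR adjusted p = 0.0299). Its levels, given above, did not overlap between genotypes, but the call was lost without WT unstimulated replicate 1 (-1.25) or 3 (-1.32) or IRF5 KO unstimulated replicate 1 (-1.48) or 2 (-1.26). Ccrl2 was lower in WT by less than 2-fold, at -0.71 (SE 0.20, edgeR adjusted p = 0.0223). Ccr7 was at -0.81 (SE 0.45), Ccr1 at -0.37 (SE 0.41), Cxcr4 at -0.17 (SE 0.18) and Ccr2 at 0.54 (SE 0.32). The libraries of the 2 genotypes did not overlap for Ccr7, Ccr1 or Ccr2, although none of these differences was called.

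After LPS the genotypes differed in 4 of 6 receptors, against 25.8% of all genes tested (11.8% lower in WT and the rest higher). Ccr2 and Ccr7 were higher in WT, by 1.45 (SE 0.33, edgeR adjusted p = 0.00198) and 1.45 (SE 0.46, edgeR adjusted p = 0.0161) on the log2 scale. The summed dendritic cell markers were 12455 to 14211 CPM in these WT libraries and 6226 to 6937 CPM in the IRF5 KO ones, or 130 to 150 and 136 to 163 CPM without Ccl22, and single markers differed in direction, with Zbtb46 at a mean of 91.2 and 61.9 CPM, Dpp4 at 11.3 and 49.9 CPM and Batf3 at 22.1 and 30.9 CPM. Their part in the Ccr7 difference was not tested. Cxcr4 and Cx3cr1 were lower in WT, by -1.69 (SE 0.19, edgeR adjusted p = 5.91e-06) and -1.89 (SE 0.51, edgeR adjusted p = 0.00590). The Cxcr4 and Cx3cr1 differences were called without replicate 3 (-1.50 and -1.37) and without replicates 1 and 2 (-2.03 and -2.56). Those of Ccr2 and Ccr7 were 2.16 and 1.91 without replicate 3, and 0.61 and 0.80, not called, without replicates 1 and 2. Ccr7 also lost its call without WT LPS DMSO replicate 2 (1.29), or when replicate 1 or 2 of IRF5 KO LPS DMSO was left out (1.25 and 1.24). Ccrl2 was at 0.61 (SE 0.19, edgeR adjusted p = 0.0138), under 2-fold, at 0.41 without replicate 3, and at 1.11, called, without replicates 1 and 2. Ccr1 was at 0.08 (SE 0.41), with 0.96 without replicate 3 and -0.87 without replicates 1 and 2. Of all genes, 34.5% were called without replicate 3 and 15.95% without replicates 1 and 2.

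With defactinib and LPS, which does not involve the inhomogeneous group except through the shared estimate of spread, 4 of 6 receptors differed between genotypes, against 17.3% of all genes tested (8.45% higher and 8.87% lower in WT). Ccr2 was higher in WT by 1.72 (SE 0.33, edgeR adjusted p = 0.000821), with libraries at 267, 160 and 177 CPM against 60.6, 58.9 and 63.4 CPM. Cxcr4 was lower in WT by -1.77 (SE 0.19, edgeR adjusted p = 3.86e-06), at 2.05, 1.56 and 2.16 CPM against 6.55, 6.90 and 6.27 CPM. Ccrl2 was lower in WT by -1.55 (SE 0.19, edgeR adjusted p = 1.57e-05) and Ccr7 by -2.75 (SE 0.48, edgeR adjusted p = 0.000398), or -3.81 without WT LPS defactinib replicate 3. For each of the 4 receptors the lowest library of the higher group was more than 2-fold above the highest library of the other. The summed dendritic cell markers were 9057 to 11643 CPM in WT and 4795 to 4833 CPM in IRF5 KO, or 104 to 149 and 143 to 147 CPM without Ccl22. Zbtb46 was at a mean of 25.2 CPM in WT and 70.7 CPM in IRF5 KO, and Batf3 at 50.7 and 23.6 CPM. Their part in this difference of Ccr7 was not tested. Cx3cr1 was at -1.16 (SE 0.50, edgeR adjusted p = 0.0847), and was called without WT LPS defactinib replicate 3 (-1.77) or IRF5 KO LPS DMSO replicate 3 (-1.17). Ccr1 was at -0.39 (SE 0.41).

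Levels of the different receptors were compared per kilobase of exon (RPKM, in which the count of a gene is scaled by library size and by the length of its exons). In unstimulated WT cells the order was Ccr1 at 80.3 RPKM ± 4.73 (SD, n = 3), Ccr2 at 50.5 ± 1.20, Ccr7 at 18.2 ± 2.55, Cxcr4 at 6.01 ± 0.850, Ccrl2 at 2.39 ± 0.441 and Cx3cr1 at 0.161 ± 0.0719. No neighbours in this order overlapped. After LPS, Ccr7 led at 157 RPKM ± 26.3, followed by Ccrl2 at 120.2 ± 9.13, while Ccr1 at 37.8 ± 7.37 and Ccr2 at 30.1 ± 6.13 overlapped. With defactinib and LPS, Ccrl2 (42.8 ± 9.01), Ccr2 (29.8 ± 8.51), Ccr1 (27.5 ± 14.1) and Ccr7 (11.7 ± 10.7) each overlapped the next. In IRF5 KO cells Ccr1 led before stimulation, at 103.6 RPKM ± 14.1, Ccr2 (34.9 ± 4.47) and Ccr7 (31.9 ± 5.41) overlapped, and Ccrl2 led after defactinib and LPS at 124.9 ± 2.69. In each of the 6 groups Cx3cr1 was the lowest.

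**Figure D4:**
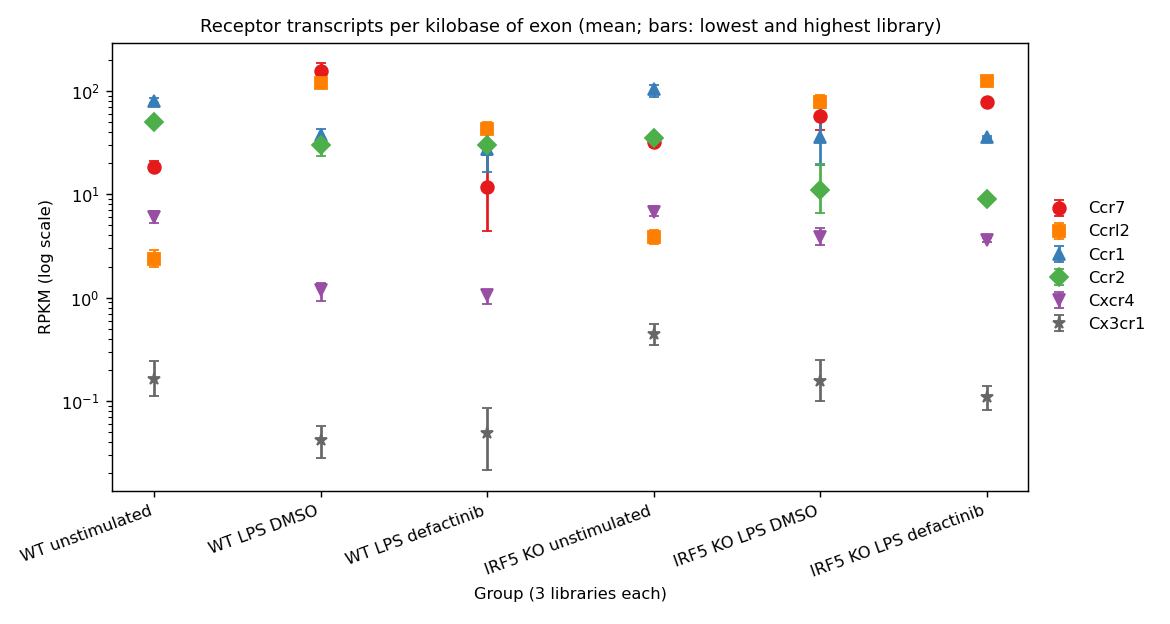
Mean level of the 6 receptors per kilobase of exon (RPKM, log axis) in each group of 3 libraries; bars run from the lowest to the highest library. Ccr1 leads both unstimulated groups (80.3 and 103.6 RPKM), Ccr7 and Ccrl2 lead after LPS in WT (157 and 120.2), and Cx3cr1 is lowest in every group.

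The ligands of these receptors were counted from a list of 14, of which 9 passed the filter. Ccl19 and Ccl21a, ligands of Ccr7, had no count in any library, and Cxcl12, the ligand of Cxcr4, did not exceed 0.381 CPM. Of the 9, 6 rose and 0 fell after LPS in WT, against 11.6% of all genes that rose, and 4 rose and 0 fell in IRF5 KO, against 7.07%. With defactinib, 0 rose and 6 fell in WT, against 18.6% of all genes that fell, and 0 were called in IRF5 KO, against 0.919% of all genes. Without replicate 3 of IRF5 KO LPS DMSO, 4 rose and 1 fell with LPS in IRF5 KO (9.64% and 16.6% of all genes), and 1, Ccl7, was called higher for defactinib (0.611% of all genes). Without replicates 1 and 2, when 10 ligands were tested, 4 rose with LPS, against 2.66% of all genes, and Ccl7 and Ccl12 fell with defactinib, against 14.6% of all genes. The median log2 fold change of the list was 1.68 for LPS in WT and -1.90 for defactinib in WT, beside -0.0045 and 0.0858 for all genes. Ccl3, a ligand of Ccr1, and the related chemokine Ccl4 rose by 1.68 (edgeR adjusted p = 9.02e-05) and 2.71 (edgeR adjusted p = 3.20e-07) with LPS in WT. With defactinib they fell by 3.12 and 2.17 on the log2 scale. The largest rise was that of Ccl5, another ligand of Ccr1, at 5.32 (edgeR adjusted p = 3.48e-05), which was not called for defactinib (-0.43). With the inhibitor Ccl5 was at 321 and 283 CPM in replicates 1 and 2, below every DMSO library, and at 2617 CPM in replicate 3, above them. Ccl6 and Ccl9, the most abundant ligands, were not called for LPS or defactinib in WT.

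Of 24 other chemoattractant receptors, 13 were tested. After LPS in WT, 6 rose and 2 fell, against 11.6% and 9.71% of all genes, and in IRF5 KO 0 rose and 2 fell, against 7.07% and 6.28%. With defactinib, 0 rose and 7 fell in WT, against 18.6% of all genes that fell, and 0 were called in IRF5 KO, against 0.919% of all genes. The IRF5 KO counts depended on the libraries of the LPS DMSO group. Without replicate 3, 6 of 15 tested fell with LPS, against 16.6% of all genes, and 1, C5ar1, rose with defactinib, against 0.611%. Without replicates 1 and 2, 0 of 16 tested were called for LPS, and 7 fell with defactinib, against 14.6% of all genes. C5ar1, the receptor of the complement fragment C5a, rose most with LPS in WT (3.53, edgeR adjusted p = 5.47e-06) and fell most with defactinib (-3.54, edgeR adjusted p = 5.00e-06). Cxcr2, a receptor of neutrophil chemokines, fell most with LPS in WT (-3.40, edgeR adjusted p = 0.00430). Cmklr1, the signalling receptor of chemerin, fell with LPS in both genotypes (-2.07 and -1.53), opposite in sign to Ccrl2, which binds the same ligand. In IRF5 KO its value was -2.31 without replicate 3 and -0.64, not called, without replicates 1 and 2. Its ligand gene Rarres2 had at most 0.170 CPM in any library.

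Of 27 genes that act behind chemokine receptors, 27 were tested. After LPS in WT, 2 rose and 5 fell, 7 of 27 against 21.3% of all genes, and with defactinib in WT 1 rose and 2 fell, 3 of 27 against 29.1%. The list medians were 0.02 and 0.30. In IRF5 KO, 2 rose and 1 fell after LPS, 3 of 27 against 13.3%. That became 3 higher and 4 lower without replicate 3, against 9.64% and 16.6% of all genes, and 1 higher and 0 lower without replicates 1 and 2, against 2.66% and 0.042%. With defactinib in IRF5 KO, 0 of 27 were called with all libraries, against 0.919% of all genes, and 0 without replicate 3, against 1.45%. Without replicates 1 and 2 the log2 fold changes ran from -2.41 for Pik3r5 to 0.79 for Elmo1. Rgs1, which shortens G protein signalling, rose in WT (2.84, edgeR adjusted p = 5.72e-07) and in IRF5 KO (2.52, edgeR adjusted p = 1.55e-05), where it was 2.73 without replicate 3 and 1.97 without replicates 1 and 2, called in both. Rgs18 fell most in WT (-1.53, edgeR adjusted p = 0.00855). The abundant genes Gnai2, Gnb1, Rac1 and Dock2 were not called for LPS or defactinib in either genotype.

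**Figure D5:**
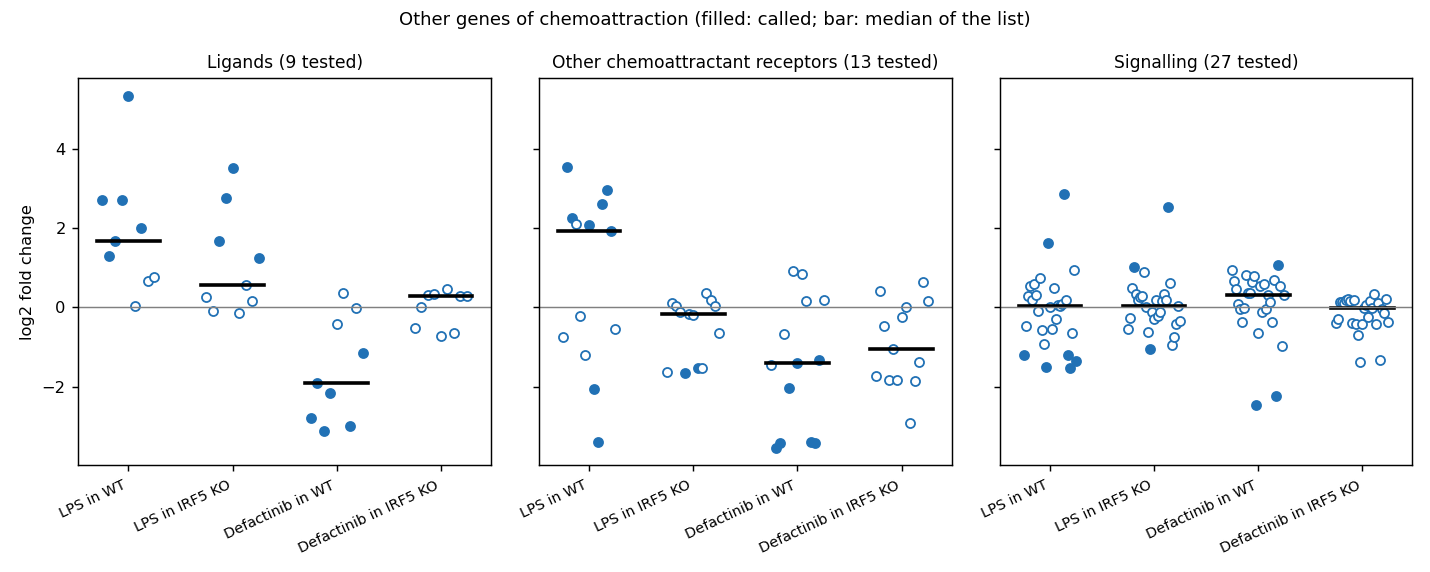
Log2 fold changes of ligands (9 tested), other chemoattractant receptors (13 tested) and signalling genes (27 tested) for LPS and defactinib in each genotype; each dot is 1 gene, filled if called, and bars are list medians. Ligand medians are 1.68 for LPS in WT and -1.90 for defactinib in WT, the comparisons sharing the WT LPS DMSO libraries, while the signalling medians are 0.02 and 0.30.

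The genes around Ccr1 and Ccr2 did not all move as these did. Within 500 kb of Ccr1, 15 genes were tested, of which 5 rose and 0 fell with LPS in WT, the comparison in which Ccr1 fell and 11.6% of all genes rose. They were Gm2774 (3.85), Ccr3 (2.24), Ccr9 (2.06), Slc6a20a (1.58) and Fyco1 (1.09). With defactinib in WT, 7 of the 15 fell and 0 rose, against 18.6% and 10.4% of all genes, while Ccr1 and Ccr2 were not called. Within 500 kb of Ccr2, 12 genes were tested, of which the 5 just named rose and 1, Ccr1, fell with LPS in WT, and 6 fell with defactinib in WT. Only uniquely mapped reads were counted, so reads shared by related receptors were left out rather than split.

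The genes most like each receptor were found by Pearson's r of log2 CPM over the 18 libraries, among the 8455 genes whose mean log2 CPM was 3 or more. The 18 points share groups and treatments, so these values are descriptions. Ccrl2 was followed most closely by Cxcl1 (r = 0.987), Ptgs2 (0.985) and Gadd45b (0.984), and Ccr7 by Filip1l (0.979), Gpr132 (0.962) and Kpna4 (0.957). For Ccr1 the nearest were Cln8 (0.966), Tlr4 (0.963), the receptor of LPS, and Kansl2-ps (0.960), and for Ccr2 Ptpro (0.977), Nln (0.966) and Rhoq (0.962). Cxcr4 was closest to Egr2 (0.975), Mnt (0.971) and Il21r (0.968), and Cx3cr1 to Pdcd11 (0.941), Csf2rb (0.939), a subunit of the GM-CSF receptor, and Bcl9l (0.927). The order depended on the measure. By Spearman's rank correlation Ptgs2 had rank 1 for Ccrl2 and Pdcd11 rank 1 for Cx3cr1. Cxcl1 and Gadd45b had ranks 51 and 292 for Ccrl2, and Rhoq had rank 89 for Ccr2. Among the receptors themselves, Cxcr4 and Cx3cr1 were the most alike (r = 0.863) and Ccr1 and Ccrl2 the most opposed (r = -0.75).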

How the data were processed

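The authors aligned paired reads with STAR to mm10 and deposited raw counts per gene from featureCounts 1.6.3, reverse stranded, with uniquely mapped reads only. From the deposited counts, library sizes were scaled by TMM, low genes were removed with filterByExpr, and 1 model with 6 groups was fitted by the quasi-likelihood method of edgeR 4.0.16 in R 4.3.3. Contrasts gave 7 comparisons between groups and 2 interactions. A gene was called at a Benjamini-Hochberg adjusted p under 0.05 and a change of at least 2-fold. CPM and RPKM used the TMM sizes, and log2 CPM a prior count of 2. DESeq2 1.42.0 was an alternative. The pipeline was tested on simulated data for LPS in WT only, without an inhomogeneous group and without an interaction. Promoters came from RefSeq (GRCm38.p6), which had an entry for 5 of the 6 receptors. The 250 bases before the start were searched on both strands for the motifs named above, NF-kB as GGGRNNYYCC. The receptors, gene lists and tests were chosen with earlier results of these data known. Named were the 6 receptors, called list genes where 5 or fewer, otherwise the 4 most abundant and the largest rise and fall, neighbours within 500 kb, and the 3 genes most like each receptor. Nothing in the labels says that replicate numbers pair samples, and the p-values measure the spread between these cultures. Counts in all 18 sample columns were used.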

Additional observations from a re-analysis of the deposited data

Results flagged for a closer look

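A difference in response between the genotypes, tested as an interaction (WT minus IRF5 KO) with edgeR, was found for 3 of 6 receptors after LPS, against 9.83% of all genes tested, and for 2 of 6 with defactinib, against 22.8%. For LPS the log2 values were 1.32 for Ccrl2, 2.25 for Ccr7 and -1.52 for Cxcr4. For defactinib they were -2.16 for Ccrl2 and -4.20 for Ccr7. These tests use the IRF5 KO LPS DMSO libraries, of which replicate 3 differs from replicates 1 and 2. Without replicates 1 and 2 the Ccr7 interaction with LPS was 1.6 and not called, and the other 4 were called, at 1.82 for Ccrl2 and -1.86 for Cxcr4 with LPS, and at -2.65 for Ccrl2 and -3.53 for Ccr7 with defactinib. The Ccr7 interaction with LPS also lost its call in 6 of the 18 settings that left out 1 library, 3 of them libraries of WT cells. The part of those libraries in the differences was not tested further.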

How the results depend on the processing

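Counts of receptors called moved in these settings. For LPS in IRF5 KO the count was 1 with only the compared groups in the fit, 1 without the IRF5 KO LPS DMSO libraries 1 and 2, and 2 to 5 over the settings that left out 1 library. For defactinib in IRF5 KO it was 2 without those replicates. For genotype in unstimulated cells it was 2 with no fold limit and 0 to 1 with 1 library left out, and for the LPS interaction 2 to 5. Calls of single receptors were also lost with DESeq2 size factors (Ccr1 for LPS in WT, edgeR adjusted p = 0.0510), with no filter (Ccr1 for LPS in WT, 0.117; Ccr7 for genotype after LPS, 0.0557, and for the LPS interaction, 0.0872) and with only the compared groups (Ccr2 for genotype after LPS, 0.0603).

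Over 45 pairs of same-numbered libraries the median correlation of deviations from the group mean was 0.00455, and 4 exceeded 0.1. Libraries with different numbers were not compared, so these values cannot show whether the replicate numbers pair the samples. With the replicate block, 5 receptors were called for LPS in WT (3327 genes in all) and 0 for defactinib in IRF5 KO (82 genes, against 144 without it), and the receptor counts of the other comparisons did not move by over 1.5 times.

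Signs turned only in values that were not called. With library size alone, Ccr2 and Cxcr4 for defactinib in WT became 0.19 and 0.047, Ccr1 for defactinib in IRF5 KO -0.18, Ccr1 for genotype after LPS -0.23 and Cxcr4 for the defactinib interaction 0.26. Ccr1 for defactinib in IRF5 KO was -0.022 with no filter and -0.011 with only the compared groups, where Ccr2 for defactinib in WT was 0.020. Without IRF5 KO LPS DMSO replicates 1 and 2, Ccr1 was -0.94 for defactinib in IRF5 KO, -0.87 for genotype after LPS, -0.51 for the LPS interaction and 0.50 for the defactinib interaction, Ccr7 was -0.20 for defactinib in IRF5 KO, and Cxcr4 0.27 for the defactinib interaction. With 1 library left out at a time, the ranges that crossed 0 were -0.23 to 0.13 for Ccr2 and -0.40 to 0.58 for Cx3cr1 with defactinib in WT. With defactinib in IRF5 KO they were -0.30 to 0.89 for Ccr1, -0.56 to 0.42 for Ccr2, -0.76 to 0.013 for Cx3cr1 and -0.19 to 0.12 for Cxcr4. They were -0.24 to 0.96 for Ccr1 by genotype after LPS, -0.72 to 0.085 for Cx3cr1 in the LPS interaction, and -0.43 to 0.56 for Ccr2 and -0.27 to 0.083 for Cxcr4 in the defactinib interaction. In all, 1298 of the fold changes recomputed kept direction and call, 44 lost the call, 15 gained it and 46 turned. The cause of these changes was not tested. Cx3cr1 had 4 to 131 counts per library, the fewest of the 6 receptors.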
